A study of Mus musculus with 2 samples.

Results

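The genes described here are 38 mouse genes of the adrenal capsule, stroma and extracellular matrix: 13 collagen chains, laminins and other basement membrane proteins, small proteoglycans, fibulins and related glycoproteins, matrix proteases and their inhibitors, platelet-derived growth factor receptors, a collagen chaperone and vimentin. They were taken by name from the transcript tables of both libraries, out of 15683 annotated genes with at least 1 read in either library. Reads of every class were summed for the level of a gene, and splice forms were read from full-length reads only. The tissue was whole adrenal gland of male B6CASTF1/J mice, the first-generation cross of C57BL/6J with CAST/EiJ, aged 36 days. Long-read RNA sequencing was done on 2 libraries of this 1 group, named replicate 1 and replicate 2, and no genotype, treatment or age was compared. The labels disagree on whether the libraries came from different animals (the animal number is shared in 1 field and differs in another). SDs thus measure only the spread between these libraries, which may be technical. The p-values set a difference between the libraries against counting error and measure no spread between animals. Since the glands were sequenced whole, fewer cells of a type and less RNA per cell cannot be told apart.

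The adrenal cortex is wrapped in a capsule of fibroblast-like cells and collagen, and its cords of steroid-making cells lie against a dense net of capillaries, each backed by a basement membrane. Fibrillar collagens are built from chains that wind into a triple helix, in which glycine recurs at a fixed interval. Collagen IV, laminins, nidogen and perlecan form the sheet under endothelial and cortical cells, while small proteoglycans and matricellular proteins such as SPARC bind collagen and tune its assembly.

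The libraries held 452437 and 463102 endogenous reads after removal of spike-in RNA, so 1 read equals 2.21 and 2.16 CPM (reads scaled to the library total), and for a gene without reads the upper limit is 3 reads, or 6.63 and 6.48 CPM. Intervals and floors here cover counting error only, since amplified reads that carry no molecular identifier are not independent. Cortical marker genes had 26833 and 22060 reads and chromaffin markers 4741 and 7133, whereas 11 pancreatic acinar genes had 36 and 3433 reads and 8 liver genes 3 and 305. All 11 and all 8 of these passed the test between the libraries given further on, higher in replicate 2, where 3.16% of all genes passed it. Both lists were chosen with earlier results of these data known, so this outcome is description only.

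Matrix genes took 2859 reads (0.632%) in replicate 1 and 2366 reads (0.511%) in replicate 2, a summed level of 5714 CPM ± 856 (SD, n = 2). Of the 38 genes, 33 had reads in both libraries, 37 in at least 1 library, and Col15a1 in none. The reads were unevenly spread. Sparc, Igfbp7 and Serpinh1 alone held 66.5% and 60.1% of them, and the other 35 genes summed to 2078 CPM ± 52.8. The 13 collagen genes together had 465 and 477 reads, or 1029 CPM ± 1.59. That spread is below the 2.21 and 2.16 CPM of 1 read, so it is no measure of how constant they are. The same holds for every SD under 2.16 CPM given further on, as for Sparcl1, Vim and Hspg2. Single chains moved in both directions, such as Col3a1 at 0.840 and Col4a1 at 1.24 of the replicate 1 level. By number of reads, 24 genes had at least 20 over both libraries and 14 had fewer.

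**Figure D1:**
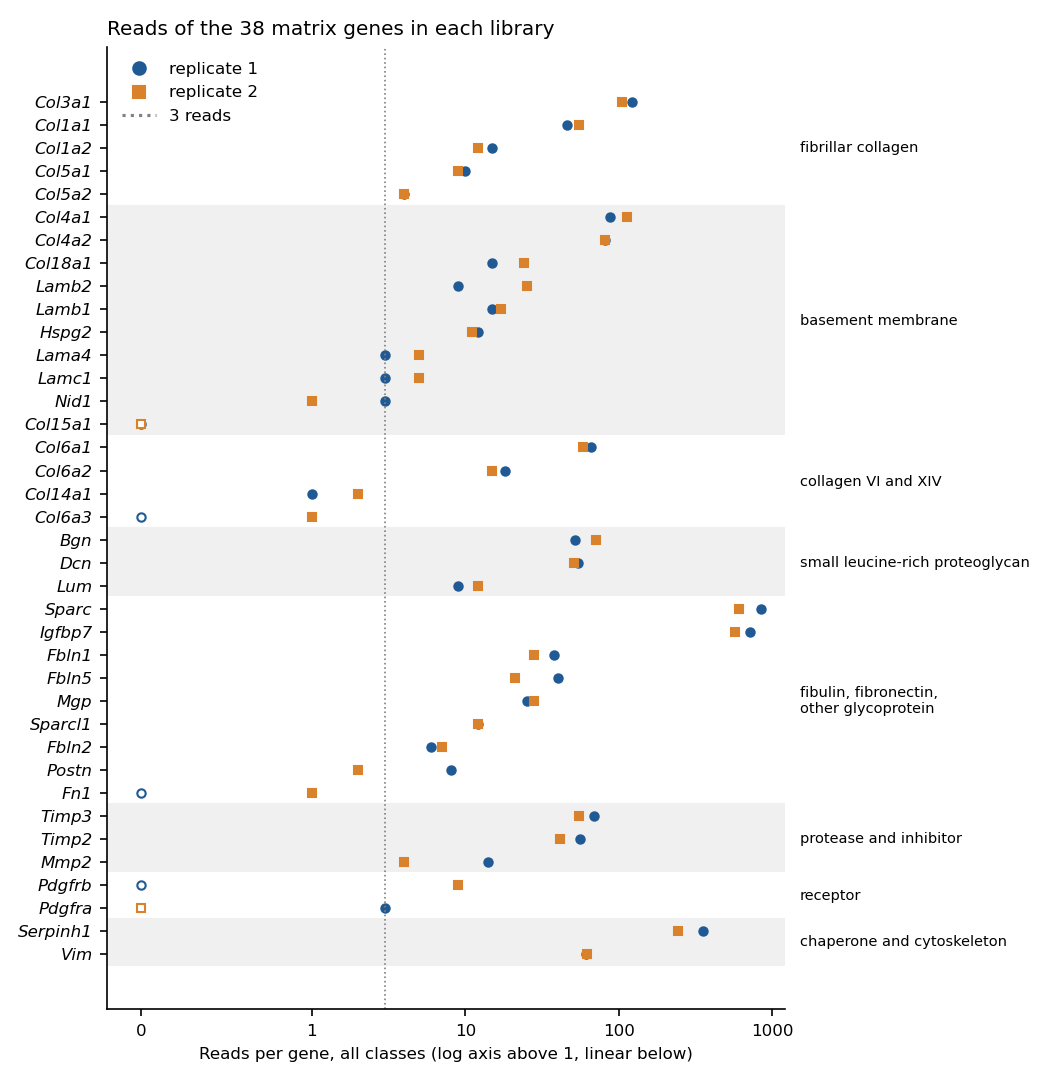
Reads of each of the 38 matrix genes (rows, grouped by role) in replicate 1 (circles) and replicate 2 (squares), on an axis that is logarithmic above 1 read; open symbols are counts of 0 and the dotted line marks 3 reads. Sparc, Igfbp7 and Serpinh1 stand to the right of all other genes, from 244 to 841 reads, and the circle and square of most genes lie close together.

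Fibroblast and capsule markers were low next to these levels. Of 13 such genes, 12 had reads, 107 and 103 in all. Cd34, found on many fibroblasts and on endothelium, had 26 and 16 reads. Pi16, a marker of adventitial fibroblasts, had 21 and 13, and Nr2f2, a nuclear receptor of stromal cells, had 16 in each. Tcf21, a factor of capsular and other mesenchymal cells, had 8 and 18 reads, while Gli1 and Wt1, which mark capsular progenitors, had 1 and 0 reads each and Prrx1 had none. Endothelial markers had 385 and 378 reads, led by Plvap with 173 and 131. Mural cell markers had 124 and 85 reads, led by Tagln with 67 and 39, and Myh11 was at 0. Adipocyte markers had 3837 and 3752 reads, led by Car3 with 1664 and 1019. Of 7 adipocyte genes in the test between the libraries given further on, Ucp1 (198 and 437 reads) was called. Of 5 cortical markers, Nr5a1 (274 and 129 reads) was called, where 3.16% of all genes were. The part that each cell type has in the reads of the matrix genes was not tested.

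Among the 5 fibrillar collagen chains of the set, Col3a1 and Col1a1 had the most reads. Col3a1, the chain of collagen III, had 121 and 104 reads (246 CPM ± 30.3, SD, n = 2). Col1a1, the main chain of collagen I, had 46 and 55 reads (110 CPM ± 12.1), and Col1a2, its partner chain, had 15 and 12 (29.5 CPM ± 5.12). Of collagen V, which starts the assembly of fibrils, the 2 chains in the set were scarcer, with 10 and 9 reads for Col5a1 and 4 in each library for Col5a2. Its chain Col5a3, outside the set, had 74 and 44 reads. The order Col3a1, Col1a1, Col1a2 was the same in both libraries, and the counts of these chains did not overlap.

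A long read is counted once whatever its length, so read counts of chains are set side by side without division by length, although copies of 1 molecule and the loss of long RNA before sequencing cannot be seen in them. Col1a1 and Col1a2 have transcripts of 5930 and 5348 bases, and collagen I protein holds more of the first chain than of the second. Col1a1 reads outnumbered Col1a2 reads 3.07-fold in replicate 1 (95% interval 1.68 to 5.91) and 4.58-fold in replicate 2 (2.43 to 9.40). Col3a1, at 5564 bases, had 2.63 times the reads of Col1a1 in replicate 1 (1.86 to 3.78) and 1.89 times in replicate 2 (1.35 to 2.67). Both ratios lay above 1 in each library by more than the counting error.

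The repeat of the collagen helix shows in the coding exons. Below is 1 exon of each of 3 chains, the first 54-base exon inside the longest run of the repeat, shown 5′ to 3′ from the GENCODE M21 transcript sequences, with the first codon of each triplet, a glycine codon, in capitals. The Col1a1 exon lies on the plus strand at chr11:94939904-94939957 (mm10), the Col1a2 exon on the plus strand at chr6:4515481-4515534 and the Col3a1 exon on the plus strand at chr1:45325360-45325413.
Col1a1 exon 8: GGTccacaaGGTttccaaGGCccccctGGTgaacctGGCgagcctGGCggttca
Col1a2 exon 8: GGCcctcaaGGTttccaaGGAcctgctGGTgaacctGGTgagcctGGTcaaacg
Col3a1 exon 6: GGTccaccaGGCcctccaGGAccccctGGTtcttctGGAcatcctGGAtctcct
Each exon holds 6 triplets of 9 bases that start with a glycine codon. Over the whole Col1a1 transcript, 43 of 49 internal coding exons were a multiple of 9 bases long and 21 were exactly 54 bases. For Col1a2 the counts were 45 of 50 and 24, and for Col3a1 43 of 49 and 24. Among 165207 distinct internal coding exons of all protein-coding transcripts, 14.3% were a multiple of 9 bases and 0.731% were 54 bases. The longest unbroken run of triplets starting with a glycine codon was 338 in Col1a1, 339 in Col1a2 and 344 in Col3a1. It was 338 in Col5a1 and 339 in Col5a2. In the basement membrane chains Col4a1 and Col4a2, whose helix is interrupted, the runs were 40 and 66 triplets, and 40% and 51.1% of internal coding exons were a multiple of 9 bases. Between these stood the collagen VI chains Col6a1 and Col6a2, both with runs of 87.

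Reads that followed every one of these many short exons were found for several chains. A read was counted as full length when it fell in the Known, NIC or NNC class, that is, when its chain of introns followed an annotated transcript, a new combination of annotated splice sites, or a chain with an unannotated site. A read of the NIC or NNC class need not reach the first annotated exon, so for it the term names the class only. Of the Col3a1 reads, 92 of 121 (76.0%) and 81 of 104 (77.9%) were full length, and Col3a1-201, with 51 exons, took 90 and 79 of them. Of the Col1a1 reads, 21 of 46 (45.7%) and 27 of 55 (49.1%) were full length, and Col1a1-201, also with 51 exons, took 18 and 27. The 5′ part was missing from most of the rest: the first exon of Col1a1-201 was covered by 45.5% and 52.9% of spliced or incomplete reads, against 100% for its last exon. Of 52 Col1a2 exons, the first was covered by 0 of 11 and 1 of 11 such reads. Only 2 Col1a2 reads, both of the NNC class in replicate 2, were counted as full length. Exons 2 and 3 were covered by 0 such reads in both libraries, so neither of these 2 reads followed every annotated exon. Col3a1 and Col1a1 transcripts are of similar length, yet the full-length shares of the libraries did not overlap between them.

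Col5a1 had 1 and 2 full-length reads. Only 1 of them, in replicate 2, followed Col5a1-201, of 8406 bases. This was the longest annotated matrix transcript whose whole intron chain was read.

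Basement membrane genes had 229 and 281 reads (556 CPM ± 71.2, SD, n = 2), most of them from collagen IV. Col4a1, which makes the more abundant chain of the common collagen IV network, had 88 and 112 reads (218 CPM ± 33.5). Col4a2, its partner chain, had 81 in each library (177 CPM ± 2.92). The pair lies head to head on chromosome 8: the start of Col4a1, on the minus strand at 11312826, and that of Col4a2, on the plus strand at 11312805, overlap by 22 bases. Col4a1 reads per Col4a2 read were 1.09 in replicate 1 (95% interval 0.794 to 1.49) and 1.38 in replicate 2 (1.03 to 1.86). These intervals overlapped and 1 of them included 1, so an excess of either chain was not shown in both libraries.

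Other basement membrane genes were much lower. Col18a1, the collagen whose end is released as endostatin, had 15 and 24 reads (42.5 CPM ± 13.2). Lamb2, a laminin beta chain of vessels and synapses, had 9 and 25 (36.9 CPM ± 24.1), and Lamb1, the more widespread beta chain, had 15 and 17 (34.9 CPM ± 2.51). Hspg2, which encodes perlecan, had 12 and 11 (25.1 CPM ± 1.96). Lama4, the alpha chain of endothelial laminin, and Lamc1, the common gamma chain, each had 3 and 5 reads, and Nid1, which links laminin to collagen IV, had 3 and 1. Col15a1, a relative of Col18a1 found at vessel walls, had 0 in both, which allows up to 6.63 and 6.48 CPM. The order from Col18a1 to Lamb1 is not resolved, since their counts overlapped between libraries, and Lamb1 exceeded Hspg2 in each by few reads.

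Full-length reads made up 36.4% and 50% of Col4a1 reads and 22.2% and 25.9% of Col4a2 reads, for transcripts of 6615 and 6450 bases. The first Col4a1 exon was covered by 34.1% and 50.5% of spliced or incomplete reads, and the last by 97.6% and 100%. Of the partial Col4a2 reads, 20 of 63 and 28 of 60 were of single-exon models that overlap the last exon. Hspg2, with 97 exons and 14187 bases, had no full-length read; 2 reads of replicate 1 started at its first exon and stopped early, and no read covered the exon at the middle of the transcript. Lamb1 had 3 and 6 full-length reads, Lamb2 3 and 10, and Col18a1, of 5063 bases, 9 of its 15 and 13 of its 24 reads.

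Col18a1 has alternative promoters that give a short form of vessel and epithelial basement membranes and longer forms. Among full-length reads, 8 and 8 started in the first exon of Col18a1-202 at chr10:77166439-77166548, 0 and 2 in the first exon shared by Col18a1-203 and Col18a1-201, and 1 and 3 elsewhere. The first exon of Col18a1-202 was thus the most used start in both libraries. Reads also split at an acceptor of this gene between exons 36 and 37. The annotated site was used in 10 and 16 reads, and a site 3 bases further in, not annotated, in 2 and 2 (16.7% and 11.1% of the reads, intervals 4.70% to 44.8% and 3.10% to 32.8%).

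Collagen VI, the beaded microfibril of the pericellular matrix, was represented by Col6a1 with 66 and 58 reads (136 CPM ± 14.6) and Col6a2 with 18 and 15 (36.1 CPM ± 5.23). The third chain, Col6a3, had 0 and 1 reads. Their transcripts have 4100, 3949 and 10106 bases, and the protein takes up 1 chain of each. Col6a1 reads outnumbered Col6a2 reads 3.67-fold in replicate 1 (95% interval 2.15 to 6.56) and 3.87-fold in replicate 2 (2.16 to 7.35). Col14a1, a collagen on the surface of fibrils, had 1 and 2 reads.

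Among the matrix genes with 20 or more full-length reads per library, the models of Col6a1 departed most from the annotation. No read followed Col6a1-201, the annotated transcript of 35 exons and 4100 bases. Instead, 36 of 40 full-length reads (90.0%) and 38 of 45 (84.4%) followed 1 unannotated chain of 32 exons and 4090 bases, on the minus strand of chromosome 10. The other full-length reads followed rarer unannotated chains. Of 14 matrix genes with 20 or more full-length reads per library, Col6a1 was the only 1 led by an unannotated form in both, where 2.24% of all such genes were. The leading chain left the annotation at 2 places. At chr10:76712402-76713180, an intron in 58 and 54 reads passed over an annotated exon of 9 bases, and the upstream exon was 4 bases longer than annotated, a net loss of 5 bases. At chr10:76721043-76721402, an intron in 40 and 42 reads passed over 2 annotated exons of 21 bases each, and the downstream exon was 37 bases longer, again a net loss of 5 bases. Annotated introns at the first place had 0 reads in both libraries, and those at the second had 0 and 1. These introns are those of the deposited models of aligned reads, and whether the RNA itself lacks the short exons was not tested. The 2 annotated exons passed over at the second place are exon 6 at chr10:76721263-76721283 and exon 7 at chr10:76721088-76721108, shown in transcript sense because the leading chain lacked both.
Col6a1 exon 6: aaaaataacgtggaacaagtg
Col6a1 exon 7: tgttgttcttttgagtgccag

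Small leucine-rich proteoglycans, which coat collagen fibrils, were read nearly completely. Bgn (biglycan) had 52 and 71 reads (134 CPM ± 27.1), Dcn (decorin) 54 and 51 (115 CPM ± 6.52) and Lum (lumican) 9 and 12 (22.9 CPM ± 4.26). The counts of Bgn and Dcn overlapped between libraries, and both exceeded those of Lum in each library. Dcn transcripts of 1758 bases were full length in 52 of 54 and 51 of 51 reads. They began in either of 2 first exons, neither of which is coding: Dcn-201 had 40 and 32 full-length reads, and Dcn-202 had 12 and 19. The Dcn-202 share was 23.1% (Wilson 95% interval 13.7% to 36.1%) in replicate 1 and 37.3% (25.3% to 51.0%) in replicate 2, a difference within counting error (two-sided Fisher's exact test, p = 0.136).

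Matricellular and other glycoproteins held the largest share of the matrix reads, 58.8% and 53.9%. Sparc (osteonectin), a collagen-binding protein of remodelling matrix, had 841 and 606 reads (1584 CPM ± 389, SD, n = 2), and only 52 of the 15683 genes had a higher mean level. Igfbp7, a secreted binder of insulin-like growth factors made by vessels and stroma, had 710 and 571 (1401 CPM ± 238). Then came the fibulins, which tie elastic fibres and basement membranes together: Fbln1 had 38 and 28 reads (72.2 CPM ± 16.6), Fbln5 40 and 21 (66.9 CPM ± 30.5) and Fbln2 6 and 7. Mgp, the matrix Gla protein that holds back calcification, had 25 and 28 (57.9 CPM ± 3.68). Sparcl1 (hevin), a relative of Sparc, had 12 in each library (26.2 CPM ± 0.432, an SD that reflects only the library totals). Postn (periostin) had 8 and 2 reads. Fn1 (fibronectin), with a transcript of 8315 bases, had 0 and 1, so no splice form of it could be read here.

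Sparc reads split between acceptor sites 3 bases apart at the start of exon 3. The stretches below are coding sequence on the minus strand of chromosome 11 (chr11:55407247-55409957 with the intron), and the capitals mark the bases that Sparc-201 holds and Sparc-202 lacks.
Sparc-201: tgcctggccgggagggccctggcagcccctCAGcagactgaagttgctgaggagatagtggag
Sparc-202: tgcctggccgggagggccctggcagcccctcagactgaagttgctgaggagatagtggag
The Sparc-202 site was used in 109 of 641 reads (17.0%, Wilson 95% interval 14.3% to 20.1%) and in 96 of 476 (20.2%, 16.8% to 24%). The shares overlapped within their intervals (two-sided Fisher's exact test, p = 0.184), and the mean was 18.6% ± 2.24 (SD, n = 2). Another annotated site, 3 bases further in and used by Sparc-206, had 0 reads in both libraries. Over the whole transcript, Sparc-201 took 514 of 675 and 368 of 485 full-length reads (76.1% and 75.9%), and Sparc-202 took 104 and 87. The annotated retained-intron transcripts Sparc-205 and Sparc-203 had 23 and 5, and 11 and 4 reads.

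Fbln5 and Col18a1 showed the same kind of choice, with the inner site not annotated. Capitals mark the 3 bases that reads of the inner site lack, in Fbln5-201 at the start of exon 3 (minus strand, chr12:101812173-101814571 with the intron) and in Col18a1-202 at the start of exon 37 (minus strand, chr10:77058798-77059134 with the intron).
Fbln5-201: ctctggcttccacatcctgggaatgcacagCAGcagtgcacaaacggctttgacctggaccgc
Col18a1-202: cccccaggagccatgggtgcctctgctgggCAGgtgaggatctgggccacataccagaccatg
In Fbln5 the inner site was used in 4 reads against 34 for the annotated site in replicate 1 and in 1 against 18 in replicate 2 (10.5%, interval 4.17% to 24.1%, and 5.26%, interval 0.935% to 24.6%). In all 3 genes the 3 bases were CAG, so that an AG, the usual end of an intron, stands just before the inner site. The intron side of the outer site was not read here. Pdgfrb reads divided likewise over sites 3 bases apart, with 2 reads at the annotated and 3 at the unannotated acceptor, all in replicate 2.

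Fbln1 reads ended in either of its known alternative last parts. Fbln1-201 continues for 3 more exons after exon 14 and Fbln1-202 for 1, giving different ends of the protein. The junction is shown on the plus strand of chromosome 15, from chr15:85244277, with the bases after the split in capitals.
Fbln1-201: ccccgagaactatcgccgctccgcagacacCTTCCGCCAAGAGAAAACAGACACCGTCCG
Fbln1-202: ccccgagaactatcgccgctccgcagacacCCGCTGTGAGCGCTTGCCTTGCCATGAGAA
After the split, 412 coding bases follow in Fbln1-201 and 352 in Fbln1-202. The Fbln1-202 junction was used in 27 of 37 reads (73.0%, Wilson 95% interval 57.0% to 84.6%) in replicate 1 and in 15 of 27 (55.6%, 37.3% to 72.4%) in replicate 2. It had more reads than the other end in both, but the replicate 2 interval includes an even split, so a lead was not shown there. The shares of the libraries did not differ beyond counting error (two-sided Fisher's exact test, p = 0.187).

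Of the protease and inhibitor genes, the tissue inhibitors of metalloproteinases were the more abundant. Timp3, the inhibitor that stays bound to matrix, had 69 and 55 reads (136 CPM ± 23.9), and Timp2, which also takes part in activating Mmp2, had 56 and 41 (106 CPM ± 24.9). Mmp2 (gelatinase A) had 14 and 4. Only 43.5% and 49.1% of Timp3 reads were full length although it has 5 exons. Its last exon is 3802 bases long. Of the partial reads, 37 of 39 and 22 of 28 were of single-exon models that overlap it, and whether they lie wholly inside was not tested. Syn3, a gene on the opposite strand that spans Timp3, had 8 and 5 reads. All 14 and 13 partial Timp2 reads were likewise of single-exon models that overlap its last exon, of 2828 bases.

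Receptors for platelet-derived growth factors were close to the detection limit. Pdgfra, a marker of fibroblasts, had 3 and 0 reads, and Pdgfrb, a marker of mural cells and fibroblasts, had 0 and 9. The ligand genes were read more: Pdgfa had 17 and 22 reads, Pdgfb 9 and 12, Pdgfd 10 and 4 and Pdgfc 2 and 10. Neither receptor reached the 10 reads needed for the test between the libraries.

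Serpinh1 encodes HSP47, the chaperone of the endoplasmic reticulum that binds newly made collagen. It had 351 and 244 reads (651 CPM ± 176, SD, n = 2), more than any collagen gene in both libraries. Its main transcript Serpinh1-201 took 293 of 320 and 200 of 213 full-length reads. Vim (vimentin), the intermediate filament of mesenchymal and cortical cells, had 61 and 62 reads (134 CPM ± 0.669), all but 1 of the full-length reads being Vim-201.

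Genes that act on collagen after its synthesis were detected throughout. All 25 genes of a collagen processing list had reads, 1500 and 1390 in all, or 3158 CPM ± 222. Pcolce, an enhancer of procollagen C-proteinase, had 582 and 570 reads, more than any collagen gene. P4hb, a subunit of prolyl 4-hydroxylase that also serves as a general protein disulfide isomerase, had 418 and 351. Ppib had 83 and 103, Crtap 64 and 49, both parts of the prolyl 3-hydroxylase complex, and Plod3, a lysyl hydroxylase, had 48 and 40. The crosslinking enzyme gene Lox had 2 and 7 reads. None of the 18 genes tested was called between the libraries, where 3.16% of all genes were.

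Of 49 further matrix genes, 43 had reads, 780 and 668 in all. Ecm1 led with 319 and 255 reads, followed by Spp1 (osteopontin) with 88 and 51, Col5a3 with 74 and 44 and Efemp2 (fibulin 4) with 49 and 62. Col5a3, another collagen V chain, thus had more reads than Col5a1 and Col5a2 together in each library. Of 20 tested, none was called, where 3.16% of all genes tested were. Matrix proteases and inhibitors outside the 38 genes had 1108 and 982 reads, of which the lysosomal protease gene Ctsb gave 964 and 859. Mmp14, the membrane metalloproteinase that activates Mmp2, was the 1 of 8 tested that was called: it had 20 and 5 reads, lower in replicate 2 (log2 ratio -1.94, adjusted p = 0.0374, Fisher's exact test with Benjamini-Hochberg adjustment). Integrins and other matrix receptors had 258 reads in each library, led by Itgb1 with 74 and 73, and transforming growth factor beta signals had 69 and 60. None of these receptor and signal genes was called, beside the same 3.16% of all genes.

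Across the set, 83.8% was the median full-length share of the 16 matrix genes with at least 20 reads in each library (85.3% and 82.3% by library), against 92.4% over all 3416 such genes. Under 50% were Col4a2 (24.1%), Col4a1 (43.2%), Timp3 (46.3%) and Col1a1 (47.4%), which is 4 of 16, where 3.04% of all genes fell under 50%. Transcript length moves with this share. Among genes with a leading transcript of at least 5000 bases the median was 87.1% over 151 genes, 13.9% of which fell under 50%, and 47.4% over the 5 matrix genes, of which 3 did. Fbln5, with 5829 bases, was at 92.7%. Its last exon is 4339 bases long, and a read that matches the intron chain need not span it. At the other end, Mgp (617 bases) was full length in all 25 and 28 reads, Igfbp7 (1116 bases) in 98.4% of reads and Vim in 96.8%. Between the libraries, 0 of 16 matrix genes were called for a change in this share (two-sided Fisher's exact test with Benjamini-Hochberg adjustment), where 0.0878% of all genes were called. The unadjusted p was above 0.05 for each of them, the lowest being 0.0531 for Col6a1.

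**Figure D2:**
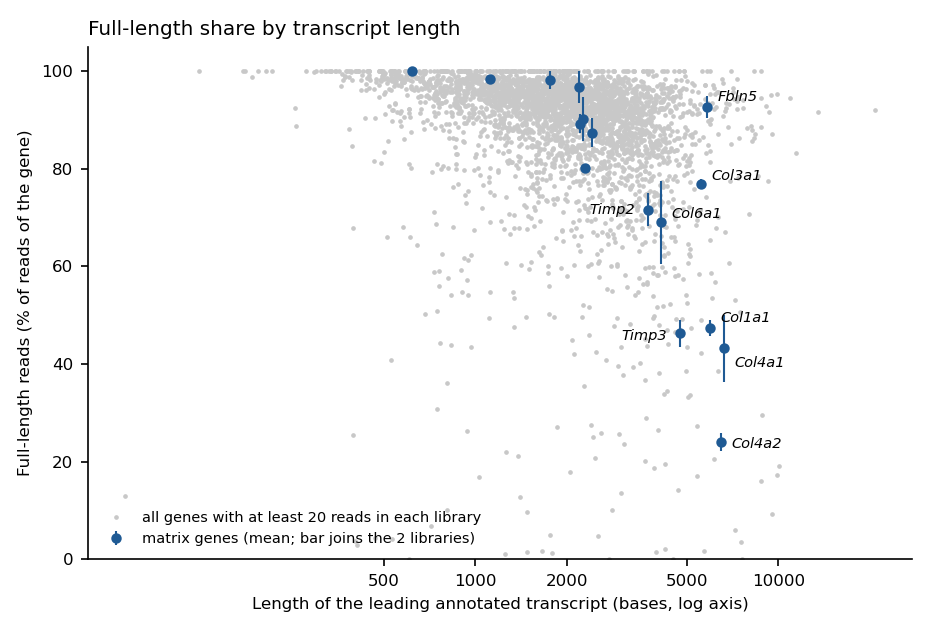
Full-length reads as a percentage of the reads of a gene (vertical axis) against the length of its leading annotated transcript (horizontal, log axis), for 3416 genes with at least 20 reads in each library (grey) and the 16 matrix genes among them (blue, mean of the libraries, bar from one library to the other). Col4a2, Col4a1, Col1a1 and Timp3 lie under 50%, while Fbln5, of like length to Col1a1 but with a last exon of 4339 bases, lies at 92.7%.

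Incomplete reads of matrix genes mostly lacked the 5′ part. Incomplete splice matches (ISM), reads that follow only part of an annotated intron chain, were 463 of 2859 matrix reads (16.2%) and 391 of 2366 (16.5%), against 8.22% and 8.96% of the reads of all annotated genes. Of these, 363 (78.4%) and 299 (76.5%) kept the 3′ end and lacked the 5′ part, against 65.3% and 63.0% over all genes. Only 9 and 3 lacked the 3′ part. By length of the leading transcript, full-length reads were 89.9% and 89.2% of the reads of 9 matrix genes under 2500 bases, 62.2% and 68.6% for 8 genes from 2500 to under 5000 bases, and 46.5% and 50.3% for 21 genes of 5000 bases and over. Of the 21 longest, 11 had fewer than 20 reads in all, and of the 9 shortest, none had.

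**Figure D3:**
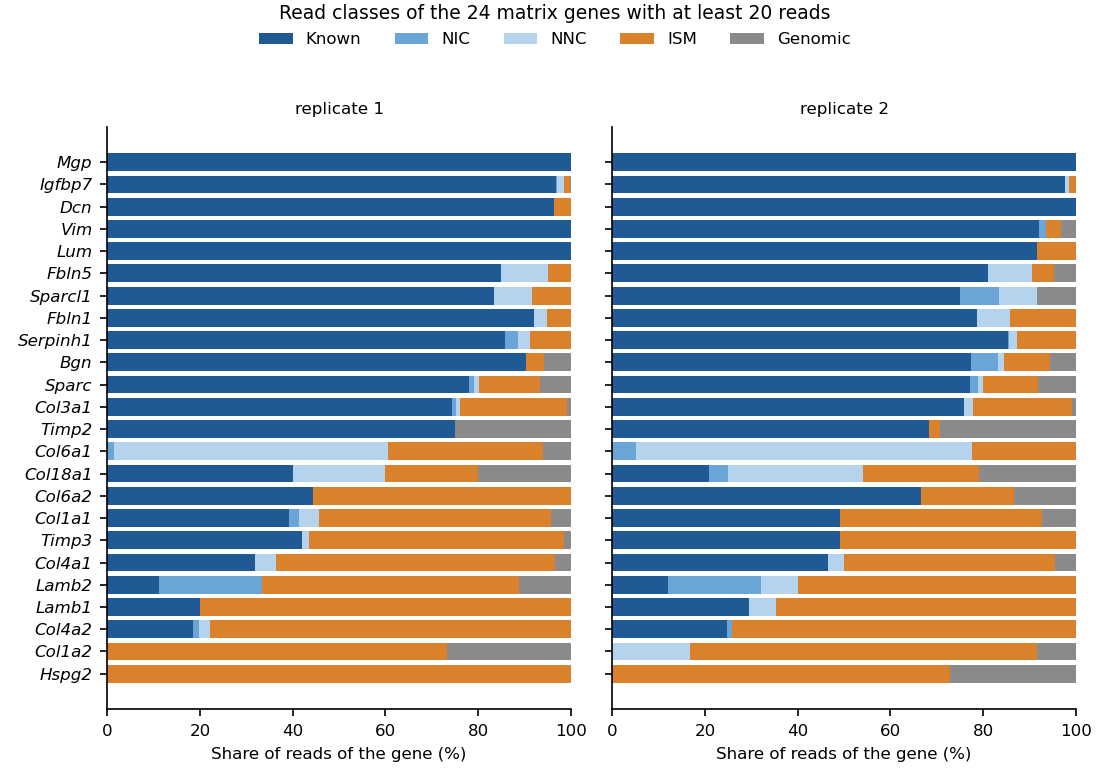
Share of the reads of each gene in each class (horizontal axis, %), for the 24 matrix genes with at least 20 reads over both libraries, sorted by full-length share, with replicate 1 on the left and replicate 2 on the right. Blue shades are Known, NIC and NNC (full length), orange is ISM and grey is Genomic, reads that do not follow the splicing of the gene; Col6a1 has no Known read, and Hspg2 has no full-length read.

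**Figure D4:**
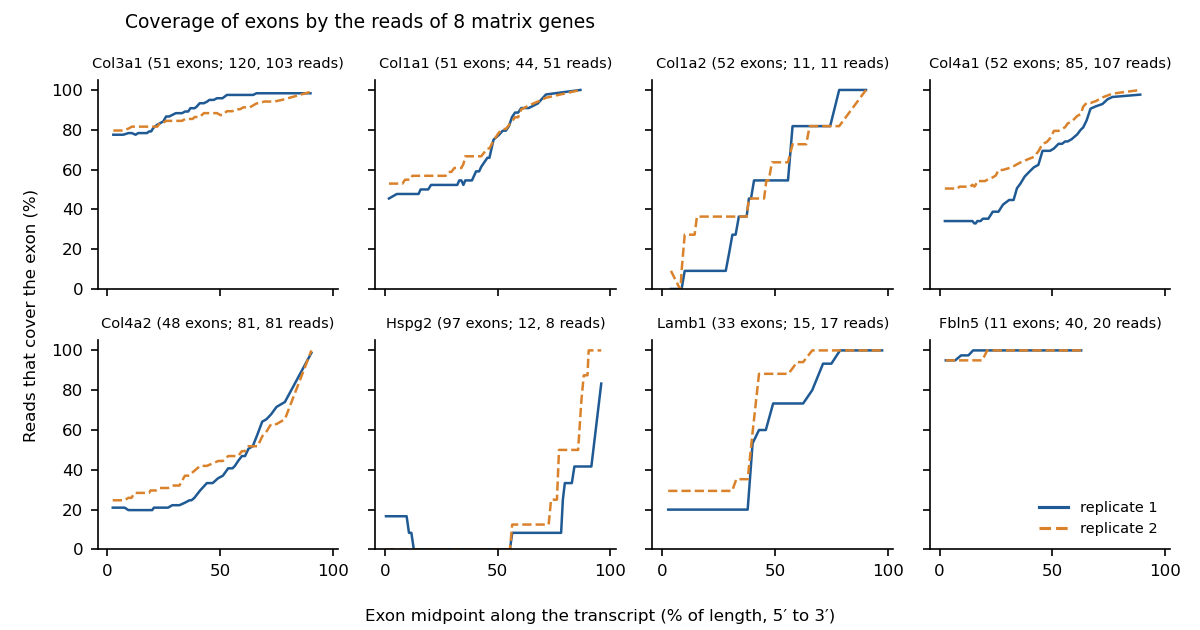
Percentage of spliced or incomplete reads that cover each exon (vertical axis) by the position of the exon's midpoint along the transcript, 5′ to 3′ (horizontal, %), for 8 matrix genes in replicate 1 (solid) and replicate 2 (dashed). Coverage of Col4a2 falls to 21% and 24.7% at its first exon and that of Hspg2 to 0 at mid-transcript, while Fbln5 stays at 95% or more.

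Within the full-length reads, most matrix genes had 1 dominant form. For the 6 genes with 50 or more full-length reads per library, the leading form held a median of 95.2%, against 94.8% over 1321 genes. It ranged from 69.8% ± 10.03 (SD, n = 2) for Dcn-201 and 76.0% ± 0.192 for Sparc-201 to 99.1% ± 1.22 for Vim-201. None of the 6 was called for a change between the libraries (two-sided Fisher's exact test with Benjamini-Hochberg adjustment), where 0.227% of all genes were called. The lowest unadjusted p was 0.136, for Dcn.

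Unannotated chains were few outside Col6a1. They made up 119 of 2297 full-length matrix reads (5.18%) and 117 of 1876 (6.24%), against 8.72% and 7.93% over all genes, and 3.50% and 3.93% with Col6a1 left out. Of 106 such chains, 82 were seen in a single read, and 5, in 4 genes, had at least 2 reads in each library. After the Col6a1 chain, a Serpinh1 form with an acceptor moved by 9 bases was the most read, with 7 and 4 reads. Sparc and Igfbp7 had the others, with 2 to 4 reads in each library. At the level of single junctions, 888 of 962 were annotated and held 99.4% of junction reads in both libraries; 21 of the 74 unannotated junctions were seen in both.

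Levels of the matrix genes were next compared between the libraries, which tests these libraries and not conditions. Of 28 genes with at least 10 reads in all, 0 were called, which needed a change of at least 2-fold with an adjusted p under 0.05 (two-sided Fisher's exact test, Benjamini-Hochberg adjustment over 8135 genes), where 3.16% of all genes were called. At any fold, 3 of 28 had an adjusted p under 0.05, where 6.47% of all genes did, and at an unadjusted p under 0.05 there were 6, where 16.9% of all genes were. All 3 were lower in replicate 2, where 3.34% of all genes were lower at that p, and they are the most abundant genes, for which counting error is smallest. Sparc stood at 0.704 of its replicate 1 level (95% interval 0.633 to 0.782, adjusted p = 2.54e-09), Serpinh1 at 0.679 (0.574 to 0.802, adjusted p = 1.29e-04) and Igfbp7 at 0.786 (0.703 to 0.878, adjusted p = 6.20e-04), by the same Fisher's exact test. Lamb2 was 2.71-fold higher in replicate 2, but its interval, 1.23 to 6.61, was wide and its adjusted p was 0.106 by that test. Mmp2 was at 0.279 (0.0669 to 0.889, adjusted p = 0.164) and Fbln5 at 0.513 (0.287 to 0.891, adjusted p = 0.141), so neither passed Fisher's exact test after adjustment.

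Of the 28 genes, 19 (67.9%) were lower and 9 higher in replicate 2, where 55.2% of all genes tested were lower, and the median log2 ratio was -0.17, against -0.03 over all genes tested. Without pancreas and liver genes in the table and in the total the median was -0.15 and again 0 genes were called, where 2.90% of all genes were. Among the collagen genes Col3a1 stood at 0.840 (0.640 to 1.10), Col1a1 at 1.17 (0.775 to 1.77), Col4a1 at 1.24 (0.932 to 1.66) and Col4a2 at 0.977 (0.709 to 1.35). Each of these intervals includes 1. Mural cell markers had 124 reads in replicate 1 and 85 in replicate 2. Of 5 tested, 4 were lower and none was called, where 3.16% of all genes were called. Of other cell types, 5 of 5 cortical, 4 of 7 endothelial and 4 of 7 capsule and fibroblast markers tested were lower. So were 3 of 7 adipocyte, 1 of 5 macrophage and 0 of 5 chromaffin markers. The part of any cell type in the values of the matrix genes was not tested.

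**Figure D5:**
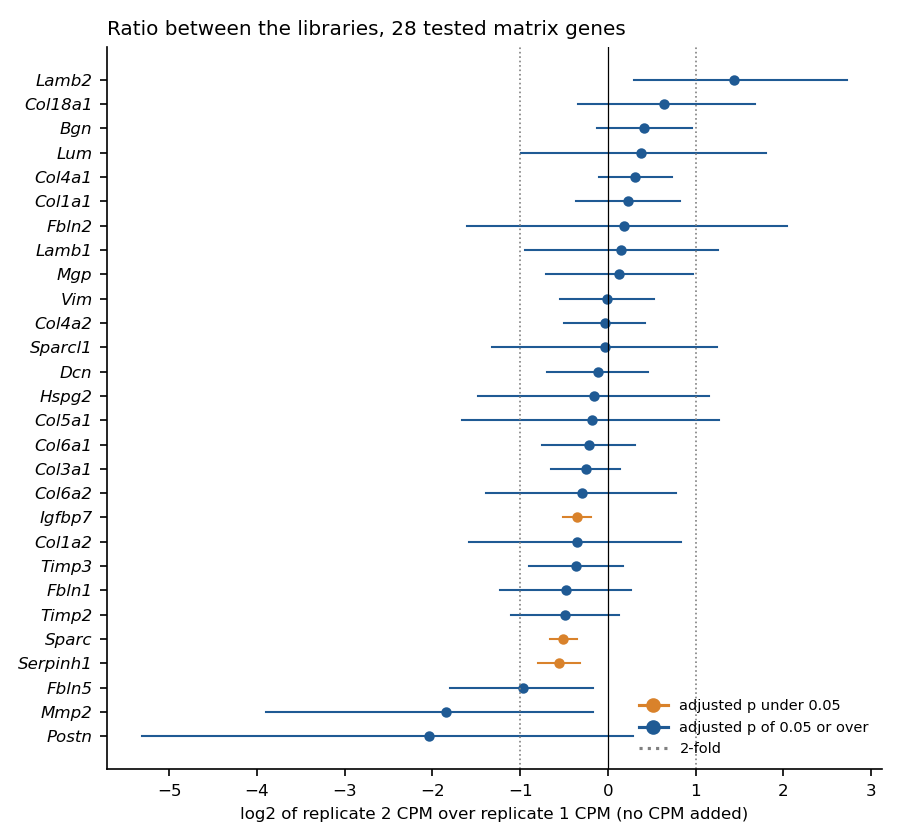
Ratio of replicate 2 to replicate 1 CPM on a log2 axis, with its exact 95% interval, for the 28 matrix genes tested; dotted lines mark 2-fold. Sparc, Igfbp7 and Serpinh1 (orange, adjusted p under 0.05 by Fisher's exact test) lie between 0.679 and 0.786 on the linear scale, inside the 2-fold lines, and the widest intervals belong to Postn and Mmp2.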

How the data were processed

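Long-read RNA sequencing of whole adrenal gland gave 1 table per library. Per the file headers, the authors assigned reads to transcript models on mm10 and deposited whole read counts per model, not normalized, with TALON classes; identifiers are those of GENCODE M21. Other deposited columns (model length, exon number, model coordinates) are, per the file headers, properties of the model and not of single reads. Aligner and versions were not given in the sources used here.

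From these counts, spike-in models were removed, reads were summed per annotated gene, and CPM were taken over endogenous reads. Libraries were compared with two-sided Fisher's exact tests (scipy 1.17.1) and Benjamini-Hochberg adjustment over all annotated genes with at least 10 reads, and called from 2-fold (after adding 1 CPM) with an adjusted p under 0.05; the script was tested on simulated data. edgeR 4.0.16 supplied TMM factors and DESeq2 1.42.0 size factors, as alternative scales only. edgeR's quasi-likelihood test was not used because 1 group leaves nothing to compare. Shares carry Wilson 95% intervals and ratios exact conditional 95% intervals. Full-length shares needed at least 20 reads in each library, leading forms at least 50 full-length reads, and both a change of at least 10 percentage points. Forms were matched between libraries by annotated transcript or intron chain.

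Full values are given for genes with at least 20 reads over both libraries and counts for the rest, up to 5 most abundant genes of each further list with every called gene, and up to 8 unannotated forms; Lox, Tcf21, Gli1 and Wt1 and the inner acceptors of Col18a1, Fbln5 and Pdgfrb were named after their values were seen. Members and lists were chosen with earlier results of these data known. Coding sequences are from GENCODE M21 transcripts (mm10); no genome sequence or protein table was used here, so runs of the collagen repeat were read from codons. A further splice result of Col5a1 is not reported here.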

Additional observations from a re-analysis of the deposited data

Results flagged for a closer look

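Reads of the Antisense class, which lie opposite an annotated gene and enter no level above, numbered 26 in replicate 1 and 29 in replicate 2 opposite the matrix genes. They lay opposite 20 of the 38 genes and equalled 0.909% and 1.23% of the matrix reads. Sparc had 4 and 6 and Col4a1 3 and 4. The same shares were not taken over all annotated genes, so whether these are high or low was not tested.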

How the results depend on the processing

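No paired analysis was possible because the study has 1 group. The count of 0 matrix genes called between the libraries held under all 9 alternatives tried for it (minimum reads, fold, added CPM, TMM or DESeq2 scale, read classes, and removal of pancreas and liver genes). The count of 0 for the full-length share held with a minimum of 50 reads, and that for the leading form with at least 20 full-length reads and with a change of at least 5 percentage points. The log2 ratios of Sparc, Serpinh1, Igfbp7, Lamb2, Fbln5 and Mmp2 kept their direction and their side of the threshold wherever they were tested. The median log2 ratio of the matrix genes moved from -0.17 to -0.033 with no minimum of reads and to -0.032 over Known, NIC and NNC reads only. Those classes alone gave a summed level of 4564 CPM in place of 5714, and leaving out 1 replicate gave 5109 and 6319. The median full-length share was 89.7% without the Genomic class and 80.3% with Known reads only, and 82.3% and 85.3% with 1 replicate left out. The leading form held 94.3% with at least 20 full-length reads (14 genes), and 94.7% and 95.7% with 1 replicate left out. Unannotated forms numbered 1 with at least 5 reads in each library and 12 with at least 1, against 5. Of the 120 levels of single genes under other scales and classes, 101 moved by less than 1 SD. These include all 24 under TMM, under DESeq2 and without pancreas and liver genes in the total, settings that only rescale the libraries. Of the other 19, 14 of 24 genes moved with full-length reads only and 5 of 24 without the Genomic class. The cause was not tested in any of these. At this depth, the 14 genes under 20 reads cannot show a difference between libraries unless it is large.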
